A study of Mus musculus with 12 samples.

Results

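The genes described here are 42 mouse genes of DNA replication and S phase, from origin licensing to the supply of deoxynucleotides. They were chosen by name as known components of the replication machinery, with earlier results of these data known. Each was taken from the gene row that carries its name. All 42 were found among the 25911 gene rows of the GC2 libraries and among the 36987 gene rows of the spermatocyte libraries. Expression was measured by RNA sequencing in 4 groups of 3 libraries each. Control GC2 cells and GC2 cells with Phb knocked down form a pair of groups. GC2 is an immortalised mouse germ cell line that the labels call spermatocytes. Spermatocytes of control mice and of mice with a conditional knockout of Phb form the other pair, and were enriched from digested tubules by flow sorting on a DNA dye. Phb encodes prohibitin, a scaffold protein of the inner mitochondrial membrane. The sources used here do not give the method of the knockdown, the Cre driver of the conditional knockout, the strain, or the age and number of the animals. The libraries are called biological replicates without naming a culture or animal, so a p-value reflects only the variation among these libraries, part of which can be technical.

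Chromosome replication begins with licensing, in which the origin recognition complex, CDC6 and CDT1 load the MCM2-7 ring onto DNA in G1. In S phase CDC45 and the GINS complex join the ring to form the active helicase, polymerase alpha with primase starts each strand, and polymerases epsilon and delta extend it with the sliding clamp PCNA. Most of these genes are transcribed in a wave at the G1/S border under E2F control, and in the testis the last round of replication takes place in preleptotene spermatocytes, before meiotic prophase.

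Values are FPKM, fragment counts scaled to transcript length and to the size of the library, so levels of different genes are compared per length. The libraries were first checked against their labels. Phb stood at 52.36 to 56.62 FPKM in GC2 controls and at 18.37 to 22.66 in knockdowns. In spermatocytes it stood at 12.6 to 13.86 FPKM in controls and 11.33 to 11.81 in knockouts. The groups did not overlap in either kind of cell, but the fall in knockout spermatocytes was much the smaller. In GC2 cells the meiotic gene Sycp3 reached at most 0.22 FPKM and the meiotic entry gene Stra8 at most 0.02. Markers of leptotene and zygotene cells summed to 4.12 to 4.65 FPKM in GC2 controls and 3.8 to 4.06 in knockdowns. Those of pachytene and diplotene cells summed to 75.2 to 77.1 and 54.7 to 76.8 FPKM, and Ybx3 made up most of these sums. In control spermatocytes Sycp3 stood at 156.3 to 165.4 FPKM. Levels of cell type markers in the sorted samples moved with the genotype. All 18 tested markers of pachytene and diplotene spermatocytes were called lower in knockouts, with a summed level of 3855 to 3924 FPKM in controls and 104 to 107 in knockouts. Of 20 Sertoli cell markers 18 were called higher, with sums of 1312 to 1412 and 5610 to 5792 FPKM, and all 10 tested Leydig cell markers were called higher, with sums of 59.4 to 61.3 and 314 to 332 FPKM. All 15 spermatid markers were called lower, with sums of 999 to 1036 and 19 to 22.2 FPKM. Of 11 tested markers of macrophages and other immune cells 9 were called higher and 1 lower. Of 11 tested peritubular myoid and endothelial markers 10 were called higher and 1 lower. Among all tested spermatocyte rows 40.9% were called higher and 38.5% lower. Markers of leptotene and zygotene cells summed to 712 to 727 FPKM in controls and 523 to 537 in knockouts. Of these 18, 4 were called higher and 11 lower (5 and 8 under quantile normalization, 5 and 7 under median centring). Markers of spermatogonia summed to 851 to 879 and 527 to 542 FPKM, with 3 of 18 called higher and 10 lower (4 and 3 under quantile normalization, 7 and 3 under median centring) and a median log2 change of -0.11. Dmrtb1, from a mean of 238 to 6.32 FPKM, and Ddx4, from 157 to 47.8, carried most of the fall of that sum. The part of these shifts in the results on replication genes was not tested, and in such bulk samples fewer cells of a type and less RNA per cell cannot be told apart.

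In the control spermatocytes the replication genes covered a wide range of levels. Pcna, the sliding clamp, was the most abundant of the 42 in all 4 groups. In control spermatocytes it was followed by Uhrf1, Mcm7, Dut and Gins4, and the lowest levels were those of Tk1 and Tyms. In control GC2 cells Mcm6, Mcm4, Mcm3 and Mcm7 followed Pcna, and the row that names E2f1 together with Necab3 was the lowest. Over the 41 genes with a GC2 row of their own, the summed level was 1177 to 1253 FPKM in control libraries and 1234 to 1284 in knockdown libraries, ranges that overlap. Over the 40 genes with a spermatocyte row of their own, it was 611 to 626 FPKM in control libraries and 487 to 489 in knockout libraries, ranges that do not overlap. Both tables were made separately and are set side by side only. Exons of Ccne2, Cdc45, Fen1, Gins2, Lig1, Mcm7, Orc1, Orc6, Pole, Rfc2, Rfc4, Rfc5 and Tk1 overlap a gene on the opposite strand, and the sources used here do not say whether the counting used strand, so the values of these 13 genes may hold reads of a neighbour.

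The first comparison asks what the knockdown of Phb did to replication genes in GC2 cells. Of the 42 genes 7 rose, 4 fell and 31 were not called, at an adjusted p under 0.05 in limma. The genes that rose were Rrm2, Orc6, Tk1, Rfc5, Pole2, Pola2 and Mcm7, and the genes that fell were Rfc1, Prim2, Mcm10 and Prim1. The called share was 26.2% of these genes, beside a background of 24.5% of all 10791 tested rows, so the number called was near that of the whole table. By direction, 16.7% were higher beside a background of 10.7%, and 9.52% were lower beside 13.9%. None of the called changes reached 2-fold, beside backgrounds of 1.3% higher and 2.21% lower by as much. The libraries of both groups did not overlap for 12 genes that were higher in knockdowns (28.6%, background 19.6%) and 8 that were lower (19.0%, background 25.3%), in all beside a background of 44.9%. The median log2 fold change of the 42 was 0.04, beside -0.038 over all tested rows. Under 3 other scalings the same 7 genes were called higher, beside a background of 10.7%, and Mcm10, Prim2 and Rfc1 lower, beside 10.2%. With every library scaled to the same total over rows not encoded by the mitochondrial genome, Orc1, Pole and Uhrf1 were called higher as well. Of all 10777 rows tested in this setting 1510 were called higher, beside 1153 of 10791 on the deposited scale. Mitochondrial rows held at most 0.128% of a GC2 total, so in GC2 this setting mainly evened out the totals. Those ran from 203973 to 206711 FPKM in controls and from 194949 to 201776 in knockdowns. Leaving out any single library left 4 genes called higher. Of all tested rows it left 744 to 962 called higher, beside 1153 with every library.

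**Figure D1:**
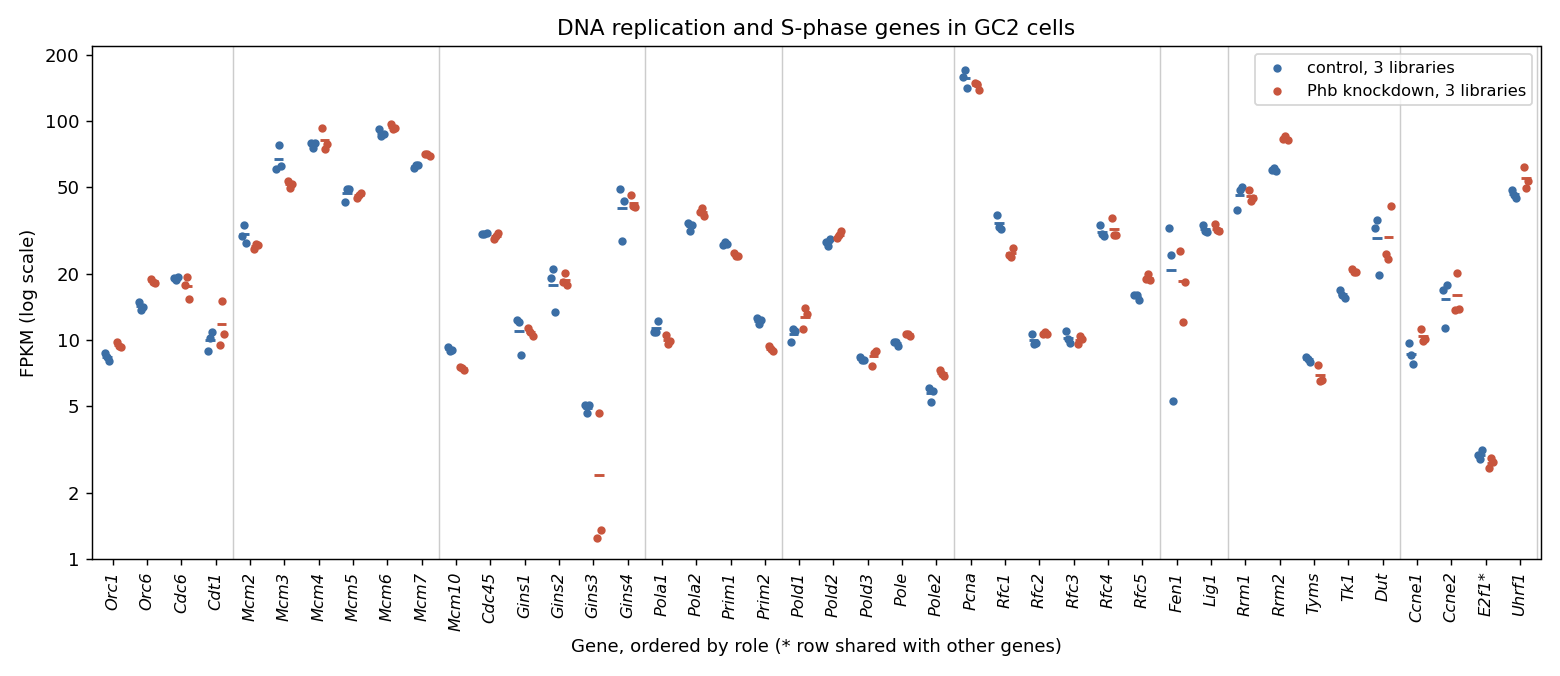
FPKM on a log axis of each of the 42 genes in the 6 GC2 libraries, ordered by role, with control libraries in blue, Phb knockdown libraries in red and the group mean as a bar. Pcna is highest in both groups, Rrm2 is separated between groups, and Fen1, Gins3 and Dut are spread widely within a group.

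Deoxynucleotide supply held the clearest rise in GC2 cells. Rrm2, the S-phase subunit of ribonucleotide reductase, stood at 59.92, 60.65 and 59.09 FPKM in controls and at 82.95, 85.53 and 82.2 in knockdowns. The groups are far apart compared with their own spread, and the log2 fold change was 0.47 (SE 0.037, adjusted p = 0.0012), which took Rrm2 from the 6th to the 3rd most abundant of these genes. Its partner Rrm1, the large subunit of the same enzyme, was not called, at 39.09, 48.59 and 49.71 FPKM in controls and 48.52, 43.12 and 44.69 in knockdowns. Tk1, the cytosolic thymidine kinase of the salvage route, stood at 16.95, 16.12 and 15.49 FPKM in controls and 21.04, 20.45 and 20.33 in knockdowns. Every knockdown library lay above every control, with a log2 change of 0.33 (SE 0.050, adjusted p = 0.0088). Tyms, the thymidylate synthase of the de novo route, was not called, with a log2 fold change of -0.22 and an adjusted p of 0.096. Dut, the dUTPase that keeps uracil out of DNA, ranged from 19.71 to 35.34 FPKM among controls and from 23.53 to 40.72 among knockdowns, and was not called.

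Among licensing genes in GC2 cells, Orc6 was called. Orc6, the smallest subunit of the origin recognition complex, stood at 14.89, 13.66 and 14.14 FPKM in controls and 18.98, 18.3 and 18.22 in knockdowns. The groups do not overlap, and the log2 fold change was 0.36 (SE 0.051, adjusted p = 0.0071). Orc1, the largest subunit, was also higher in every knockdown library than in every control, but its log2 fold change of 0.16 missed the threshold, with an adjusted p of 0.086. Cdc6, the ATPase that helps to load MCM2-7, had a log2 fold change of -0.12 with a 95% interval of -0.34 to 0.11. Cdt1, the second loading factor, had 0.19 with an interval of -0.26 to 0.64.

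Of the 6 genes of the MCM2-7 ring, Mcm7 alone was called in GC2 cells. It stood at 60.94, 62.85 and 62.74 FPKM in controls and at 70.9, 70.57 and 69.12 in knockdowns, which gave a log2 change of 0.17 (SE 0.036, adjusted p = 0.024). The groups do not overlap, although the difference is small. The call was lost when any single library was left out, with log2 fold changes of 0.16 to 0.18. Mcm3 lay on the other side, at 60.55, 77.95 and 62.48 FPKM in controls and 53.38, 49.62 and 51.42 in knockdowns. All knockdown libraries were below all controls, but control replicate 2 stood well above the other controls, and the log2 fold change of -0.37 had an adjusted p of 0.063. Without that library Mcm3 passed the test.

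The activation step held a small fall of Mcm10 in GC2 cells. Mcm10, which helps to turn the loaded ring into a moving helicase, stood at 9.28, 8.91 and 9.04 FPKM in controls and 7.54, 7.46 and 7.26 in knockdowns. The groups are tight and do not overlap, with a log2 change of -0.26 (SE 0.045, adjusted p = 0.014), although the call was lost without knockdown replicate 3. Cdc45 was close to level, with a 95% interval of -0.14 to 0.07. The GINS genes Gins1, Gins2 and Gins4 were not called, and their intervals were wide. Gins3, another GINS subunit, stood at 5.07, 4.62 and 5.04 FPKM in controls and at 1.25, 4.63 and 1.35 in knockdowns. Knockdown replicate 2 sat with the controls, so Gins3 was not called (adjusted p = 0.14), and the change passed the test without that library.

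The strand-starting enzyme changed in both directions in GC2 cells. Prim2, the large primase subunit, stood at 12.63, 11.78 and 12.39 FPKM in controls and 9.34, 9.05 and 8.87 in knockdowns. It fell by 0.40 on the log2 scale (SE 0.050, adjusted p = 0.0049), with no overlap between groups. Prim1, the catalytic primase subunit, stood at 27.04, 28.01 and 27.42 FPKM in controls and 24.83, 24.14 and 24.17 in knockdowns, a log2 change of -0.17 (SE 0.040, adjusted p = 0.036). Pola2, the regulatory subunit of polymerase alpha, rose from 34.17, 31.5 and 33.4 FPKM to 38.53, 39.96 and 36.82, a log2 change of 0.21 (SE 0.054, adjusted p = 0.042). The calls of Prim1 and Pola2 were lost when any single library was left out, and that of Prim1 also under every other scaling tried. Another GC2 row also names Prim1, with a mean of 2.8 FPKM, and the call was lost when the rows were summed. Over all alternatives its log2 fold change ran from -0.18 to -0.03, so the fall of Prim1 depends on the row and setting used. Pola1, the catalytic subunit of polymerase alpha, was not called.

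The extending polymerases and the clamp loader held 1 and 2 calls in GC2 cells. Pole2, an accessory subunit of polymerase epsilon, stood at 6.04, 5.21 and 5.84 FPKM in controls and 7.26, 6.99 and 6.88 in knockdowns (log2 fold change 0.27, SE 0.066, adjusted p = 0.040), and its call was lost when any single library was left out. Pold1, Pold2, Pold3 and Pole were not called, with log2 fold changes from 0.04 to 0.23. Replication factor C loads the clamp onto DNA, and its subunits did not move together. Rfc1, the largest subunit, stood at 37.12, 32.88 and 32.21 FPKM in controls and 24.51, 23.99 and 26.36 in knockdowns, and fell by 0.43 on the log2 scale (SE 0.073, adjusted p = 0.012). Rfc5, a small subunit, stood at 15.97, 15.96 and 15.17 FPKM in controls and 18.94, 19.91 and 18.76 in knockdowns, and rose by 0.27 (SE 0.048, adjusted p = 0.014). In both genes the groups do not overlap. Pcna itself ranged from 141.67 to 171.51 FPKM in controls and from 138.65 to 149.42 in knockdowns, with overlap and no call.

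Okazaki fragment genes and G1/S regulators were not called in GC2 cells. Fen1, the flap endonuclease that trims Okazaki fragments, stood at 32.47, 24.55 and 5.24 FPKM in controls and 25.47, 12.08 and 18.42 in knockdowns. The range among controls alone exceeds any difference between the groups, and the 95% interval of the log2 fold change ran from -1.65 to 1.88. Lig1, the ligase that joins the fragments, was nearly level, with an interval of -0.12 to 0.14. The cyclin E genes Ccne1 and Ccne2, which drive entry into S phase, and Uhrf1, which recruits the maintenance methyltransferase to newly copied DNA, had log2 fold changes of 0.24, 0.05 and 0.24. For Ccne1 and Uhrf1 every knockdown library lay above every control, with adjusted p values of 0.12 and 0.13.

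The second comparison asks the same of spermatocytes from Phb knockout mice. Of the 42 genes 25 fell, 6 rose and 11 were not called. On the log2(FPKM + 1) scale the largest falls were those of Rfc2, Gins1 and Uhrf1, and the largest rises those of Fen1, Pola1 and Rfc5. The place of Rfc5 rests on the pseudocount, since by the ratio of mean FPKM Tyms rose 1.53-fold and Rfc5 1.42-fold. The share that fell was 59.5%, beside a background of 38.5% of the 15957 tested rows, and the share that rose was 14.3%, beside a background of 40.9%. Called in either direction were 73.8% of these genes, beside a background of 79.4%, so a call as such was no more frequent than in the whole table. Of the falls 3 reached 2-fold, beside a background of 21.6%, and of the rises 1, beside 11.6%. The libraries of both groups did not overlap for 28 genes that were lower in knockouts (66.7%, background 39.6%) and 6 that were higher (14.3%, background 42.2%), in all beside a background of 81.8%. The median log2 fold change of the 42 was -0.23, beside 0.047 over all tested rows.

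The split depends in part on the scaling, since FPKM is relative to the whole library. Rows encoded by the mitochondrial genome took 12.2% to 13.6% of the FPKM total in control spermatocytes and 17.1% to 19.5% in knockouts. With totals taken over the other rows, 9 genes were called higher and 20 lower, beside 6911 and 5739 of all 15896 tested rows. With median centring the counts were 11 and 20, and with quantile normalization 12 and 20. These scalings move the median of all tested rows from 0.047 to 0.106, 0.208 and 0.281, and the whole table then had 48.5% higher and 33.5% lower under centring and 51.5% and 31.6% under quantile normalization. Lower under the deposited values and all 3 scalings were 20 of the 42 genes, beside a background of 31.2% of rows. These were Cdc6, Mcm7, Cdc45, Gins1, Gins2, Gins4, Pola2, Prim2, Pold3, Pole, Pole2, Pcna, Rfc1, Rfc2, Rfc4, Rrm1, Rrm2, Dut, Ccne2 and Uhrf1. Higher under all 4 were Orc6, Pola1, Rfc5, Fen1, Tyms and Tk1, beside a background of 40.9%.

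**Figure D2:**
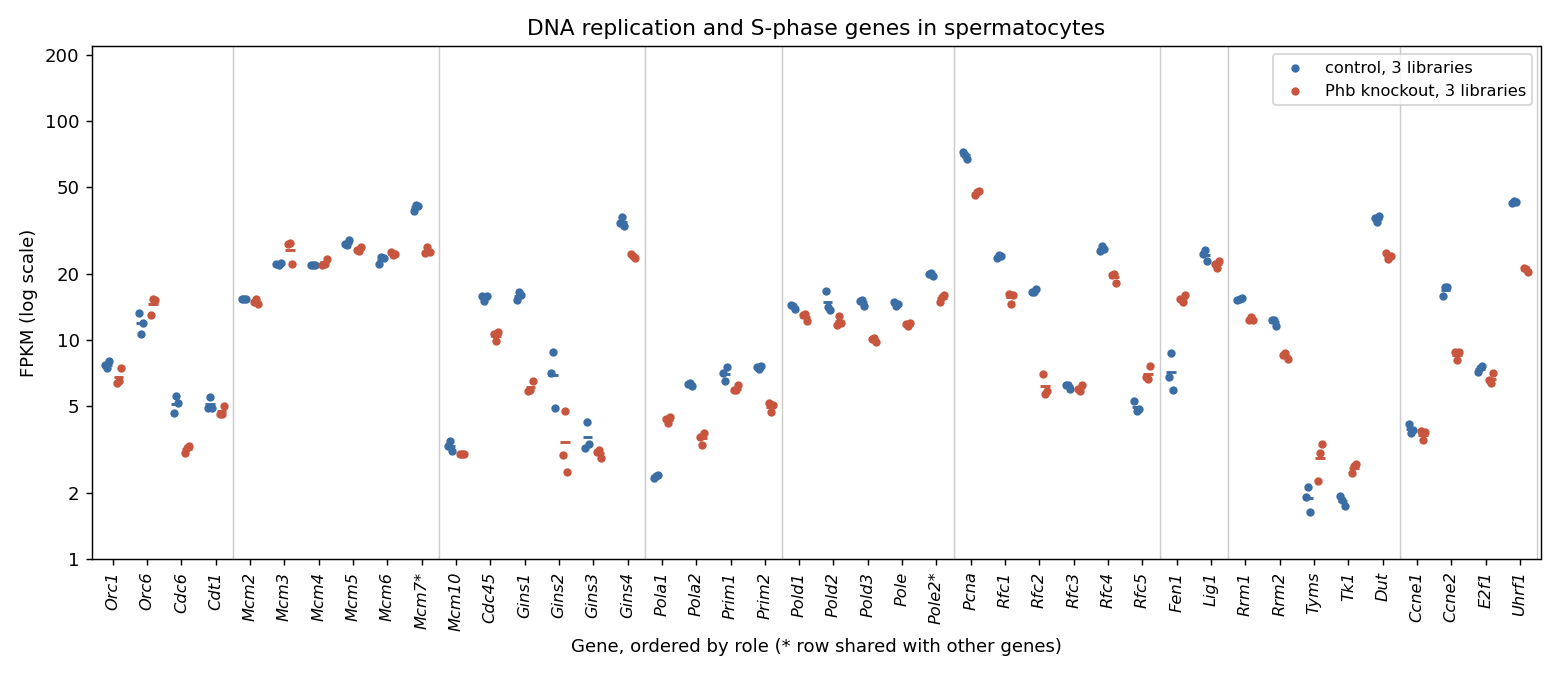
FPKM on a log axis of each of the 42 genes in the 6 spermatocyte libraries, ordered by role, with control libraries in blue, Phb knockout libraries in red and the group mean as a bar. Rfc2, Gins1, Ccne2 and Uhrf1 are separated downward, Fen1 and Pola1 upward, while Mcm2, Mcm4 and Mcm6 lie close to level.

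Promoters are shown for the 3 largest falls and the 3 largest rises in spermatocytes on the log2(FPKM + 1) scale, among the genes held by the promoter table used here, so that genes that moved in opposite directions can be set beside each other. That table, of RefSeq promoters on GRCm38.p6, held 34 of the 42 genes. Each line gives the 180 bases up to the annotated start, 5′ to 3′ on the gene's strand, for the most upstream start and, for Fen1, for the downstream start as well. Capitals mark matches, on either strand, to 4 E2F words (first TTCCCGC, then TTCGCGC, then TTGCCGC and then TTGGCGC), to CCAAT, the word bound by NF-Y, and to TTTGAA, the cell cycle homology region word. The windows are, in order, chr17:56303157-56303336 on the plus strand, and on the minus strand chr19:5964207-5964386, chr5:138171884-138172063, chr19:10204394-10204573, chr19:10203922-10204101, chrX:93632156-93632335 and chr5:117389024-117389203.
Uhrf1: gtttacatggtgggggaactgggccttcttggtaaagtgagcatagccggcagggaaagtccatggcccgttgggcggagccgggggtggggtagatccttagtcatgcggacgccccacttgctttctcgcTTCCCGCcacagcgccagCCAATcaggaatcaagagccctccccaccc
Pola2: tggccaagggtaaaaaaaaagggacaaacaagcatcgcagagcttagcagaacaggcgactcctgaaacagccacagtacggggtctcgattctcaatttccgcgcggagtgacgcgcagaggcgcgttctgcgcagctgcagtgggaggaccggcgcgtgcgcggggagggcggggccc
Mcm7: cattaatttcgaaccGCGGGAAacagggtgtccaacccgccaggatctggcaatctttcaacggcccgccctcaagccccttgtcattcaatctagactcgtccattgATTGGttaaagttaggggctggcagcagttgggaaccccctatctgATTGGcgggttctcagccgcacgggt
Fen1, upstream start: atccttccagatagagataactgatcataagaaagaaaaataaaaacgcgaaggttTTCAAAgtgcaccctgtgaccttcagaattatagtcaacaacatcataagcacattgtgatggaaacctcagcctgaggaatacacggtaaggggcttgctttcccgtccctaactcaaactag
Fen1, downstream start: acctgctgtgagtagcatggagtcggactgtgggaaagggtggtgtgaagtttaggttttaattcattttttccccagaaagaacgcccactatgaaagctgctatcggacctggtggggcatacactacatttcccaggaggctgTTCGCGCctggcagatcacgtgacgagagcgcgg
Pola1: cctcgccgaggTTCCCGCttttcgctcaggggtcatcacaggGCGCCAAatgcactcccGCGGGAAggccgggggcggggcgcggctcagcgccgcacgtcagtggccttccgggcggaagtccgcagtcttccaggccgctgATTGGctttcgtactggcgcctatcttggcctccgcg
Rfc5: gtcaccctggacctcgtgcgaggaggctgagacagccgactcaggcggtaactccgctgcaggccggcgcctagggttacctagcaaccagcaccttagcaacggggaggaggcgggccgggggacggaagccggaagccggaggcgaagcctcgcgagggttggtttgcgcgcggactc

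Uhrf1, which fell, has an E2F word that begins at -48 from its most upstream start and a CCAAT at -30. Its downstream start, not shown, has an E2F word at -184 and CCAAT at -150 and -107. Mcm7, which also fell, has an E2F word at -165 and CCAAT at -72 and -26 from its most upstream start. Its downstream start, not shown, has an E2F word at -113 and a CCAAT at -47. Pola2 has none of the searched words in its window. Among the genes that rose, Pola1 has E2F words at -169, -138 and -121 and a CCAAT at -37. The downstream start of Fen1 has an E2F word at -34, the upstream start has a TTTGAA at -124, and Rfc5 has no match. E2F words therefore stood in promoters of both directions. In the 250 bases upstream, an E2F word was found in 13 of the 34 genes (38.2%), beside 9.01% of the 27025 genes in the table. CCAAT was found in 19 (55.9%), beside 37.5%, and TTTGAA in 5 (14.7%), beside 18.3%. The words do not contain each other, though matches to different E2F words can share bases. A match is a description of the letters and was not tested for binding.

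Uhrf1 (ENSMUSG00000001228.14, chromosome 17, 56303321 to 56323486, plus strand, GRCm38) stood at 42.35, 43.07 and 42.72 FPKM in control spermatocytes and at 21.2, 21.02 and 20.34 in knockouts. The 3 libraries of each group are almost the same, and the groups are far apart, at -1.0 in log2 fold change (SE 0.026, adjusted p = 2.9e-07). In rank it went from the 2nd to the 10th most abundant of the 42 genes. Ccne2 (chromosome 4, 11191351 to 11204779, plus strand), a cyclin E gene, stood at 15.87, 17.46 and 17.38 FPKM in controls and at 8.81, 8.07 and 8.8 in knockouts. All knockouts were well below all controls, with a log2 change of -0.90 (SE 0.054, adjusted p = 1.1e-05). Its paralog Ccne1 was not called and had a 95% interval of -0.20 to 0.06. E2f1, the transcription factor that gives the E2F family its name, stood at 7.11, 7.42 and 7.6 FPKM in controls and 6.55, 6.35 and 7.09 in knockouts. The libraries do not overlap, but the log2 fold change of -0.13 had an adjusted p of 0.055.

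Licensing genes were mixed in spermatocytes. Cdc6 stood at 4.62, 5.56 and 5.13 FPKM in controls and 3.04, 3.21 and 3.28 in knockouts, and fell by 0.54 on the log2 scale (SE 0.068, adjusted p = 0.00042). Every knockout library was below every control. Orc6 was called higher with a log2 fold change of 0.26 (adjusted p = 0.042), but its libraries overlap, at 13.29, 10.7 and 11.95 FPKM in controls and 13.06, 15.44 and 15.18 in knockouts. The call was lost in 4 of the 6 omissions of a single library. Orc1 and Cdt1 were not called, with log2 fold changes of -0.16 and -0.09.

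The MCM2-7 ring is built from 1 copy of each of 6 subunits, yet its mRNAs did not change alike. Mcm7 (chromosome 5, 138164583 to 138172422, minus strand) stood at 38.84, 41.35 and 40.87 FPKM in controls and 24.92, 26.49 and 25.19 in knockouts, with a log2 change of -0.64 (SE 0.037, adjusted p = 1.1e-05). The groups are well separated. This row also names the microRNA genes Mir25 and Mir93, which lie within Mcm7. On the deposited scale the 95% intervals of the log2 fold change ran from -0.11 to 0.04 for Mcm2, from -0.05 to 0.11 for Mcm4 and from -0.00 to 0.17 for Mcm6, none of which was called. Under each of the 3 other scalings Mcm3, Mcm4 and Mcm6 were called higher, and under median centring and quantile normalization so was Mcm2, at 0.12 and 0.08, whereas Mcm7 was called lower throughout. Mcm5 was called lower by 0.09 (adjusted p = 0.037), a call that was lost in 5 of 6 omissions of a library and that turned to 0.07 under median centring and to 0.04 under quantile normalization. Mcm3 stood at 22.26, 22.03 and 22.36 FPKM in controls and 27.41, 27.68 and 22.13 in knockouts. Knockout replicate 3 sat with the controls, so the log2 fold change of 0.20 missed the threshold (adjusted p = 0.079), and it passed without that library.

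Expressed as a share of the summed MCM2-7 FPKM within a library, Mcm7 made up 26.7 ± 0.492% in control spermatocytes and 18.3 ± 0.469% in knockouts (SD, n = 3). Mcm6 made up 15.4 ± 0.36% and 17.7 ± 0.492%, and Mcm3 made up 14.7 ± 0.279% and 18.4 ± 1.95%. The ratio of the most to the least abundant subunit was 2.63 ± 0.09 in controls and 1.82 ± 0.0189 in knockouts, so the 6 mRNAs were closer in level in knockouts. In GC2 cells that ratio was 2.93 ± 0.33 in controls and 3.5 ± 0.202 in knockdowns, and Mcm6 was the most abundant subunit in both groups. Shares within a library do not change with a common scaling factor, and they show unequal change only. No test was made on the shares.

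**Figure D3:**
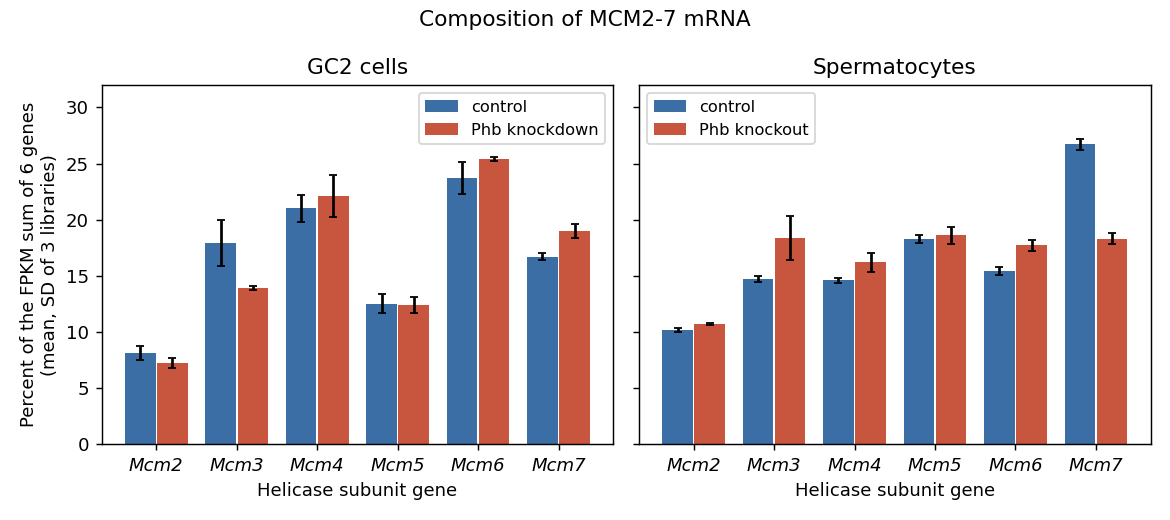
Percent of the summed FPKM of the 6 MCM2-7 genes taken by each gene, as the mean with the SD of 3 libraries, in GC2 cells (left) and spermatocytes (right), with controls in blue and Phb-depleted cells in red. In spermatocytes the bar of Mcm7 goes from 26.7% in controls to 18.3% in knockouts.

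Of the 6 helicase activation genes 4 fell in spermatocytes. Gins1 (chromosome 2, 150905400 to 150931280, plus strand), a subunit of the GINS complex, stood at 15.17, 16.56 and 16.03 FPKM in controls and 5.87, 5.9 and 6.51 in knockouts. Each knockout library was below every control by a wide margin, and the log2 fold change was -1.25 (SE 0.053, adjusted p = 2.3e-06). Gins4 stood at 34.04, 36.59 and 32.99 FPKM in controls and 24.66, 24.26 and 23.62 in knockouts, a log2 change of -0.50 (SE 0.044, adjusted p = 7.9e-05). Gins2 fell by 0.85 but varied within both groups, at 7.08, 8.81 and 4.88 FPKM in controls and 2.99, 4.76 and 2.49 in knockouts. The lowest control and the highest knockout nearly meet, the SE was 0.25 and the adjusted p 0.022, and the call was lost in 4 of 6 omissions of a library. Gins3 was not called, at a log2 fold change of -0.18. The 4 subunits of this complex thus ranged from -1.25 to -0.18. Cdc45, which binds beside GINS, stood at 15.84, 15.11 and 15.86 FPKM in controls and 10.63, 9.91 and 10.83 in knockouts, with a log2 change of -0.54 (SE 0.043, adjusted p = 4.9e-05). Mcm10 was not called, with a 95% interval of -0.21 to 0.03, but it was called higher, at 0.17, under quantile normalization.

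The subunits of polymerase alpha moved apart in spermatocytes. Pola1 (chromosome X, 93304767 to 93632155, minus strand), the catalytic subunit, stood at 2.34, 2.4 and 2.43 FPKM in controls and 4.35, 4.17 and 4.44 in knockouts. It rose in every knockout library, with a log2 change of 0.65 (SE 0.043, adjusted p = 2.0e-05). Pola2 (chromosome 19, 5940542 to 5964202, minus strand), its regulatory partner, stood at 6.3, 6.39 and 6.14 FPKM in controls and 3.61, 3.31 and 3.74 in knockouts, and fell by 0.68 (SE 0.050, adjusted p = 3.3e-05). The primase subunits fell as well, Prim2 by 0.51 (adjusted p = 6.0e-05) and Prim1 by 0.19 (adjusted p = 0.021). The call of Prim1 was lost in 4 of 6 omissions of a library and under each of the 3 other scalings. In control spermatocytes Pola1 was the lower of the pair and in knockouts it was the higher. The ratio of Pola1 to Pola2 FPKM was 0.381 ± 0.013 in controls and 1.22 ± 0.0379 in knockouts (SD, n = 3).

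All 5 genes of polymerases delta and epsilon fell in spermatocytes, by modest amounts. Pold3, an accessory subunit of polymerase delta, stood at 15.12, 15.26 and 14.24 FPKM in controls and 10.07, 10.22 and 9.82 in knockouts, and fell by 0.52 on the log2 scale (SE 0.038, adjusted p = 2.9e-05). Pole, the catalytic subunit of polymerase epsilon, stood at 14.94, 14.33 and 14.57 FPKM in controls and 11.82, 11.53 and 11.91 in knockouts, and fell by 0.29 (SE 0.031, adjusted p = 0.00019). In both genes the groups do not overlap. Pole2 fell by 0.34 (adjusted p = 0.00016), at 20.09, 20.18 and 19.57 FPKM in controls and 14.98, 15.63 and 16.06 in knockouts, but its spermatocyte row also names Rpl36al, Dnaaf2 and 2 gene models, so this value cannot be given to Pole2 alone. Pold1, the catalytic subunit of polymerase delta, and Pold2 fell by 0.14 and 0.26 (adjusted p = 0.013 and 0.024). Neither was called under the 3 other scalings, and Pold1 turned to 0.02 under median centring.

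The clamp and its loader fell in most members. Pcna (chromosome 2, 132249162 to 132253314, minus strand) stood at 72.03, 69.9 and 67.21 FPKM in control spermatocytes and 45.89, 47.21 and 47.97 in knockouts, a log2 change of -0.56 (SE 0.034, adjusted p = 1.3e-05). All knockouts were below all controls, and Pcna was still the most abundant of the 42 genes. Rfc2 (chromosome 5, 134581366 to 134601805, plus strand), a small subunit of the clamp loader, stood at 16.57, 16.64 and 17.01 FPKM in controls and 7.01, 5.65 and 5.83 in knockouts. Its log2 change of -1.31 (SE 0.075, adjusted p = 9.5e-06) was the largest fall of the 42 genes. Rfc1 stood at 23.57, 24.38 and 24.08 FPKM in controls and 16.26, 14.65 and 16.02 in knockouts, and fell by 0.59 (SE 0.045, adjusted p = 3.7e-05). Rfc4 fell by 0.41 (adjusted p = 0.00018), and Rfc3 was not called, with a 95% interval of -0.12 to 0.07, but was called higher under median centring and quantile normalization, at 0.14 and 0.12. Rfc5 (chromosome 5, 117378103 to 117389047, minus strand) rose instead, from 5.25, 4.76 and 4.82 FPKM to 6.79, 6.61 and 7.61 (log2 fold change 0.43, SE 0.064, adjusted p = 0.0010), with no overlap. The 5 loader subunits therefore held 3 falls, 1 rise and 1 gene without a call. The ratio of Rfc5 to Rfc2 FPKM was 0.295 ± 0.0186 in controls and 1.15 ± 0.169 in knockouts (SD, n = 3).

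Okazaki fragment genes diverged. Fen1 (chromosome 19, 10199132 to 10204169, minus strand) stood at 6.8, 8.76 and 5.88 FPKM in control spermatocytes and 15.34, 14.97 and 16.09 in knockouts. Every knockout library was far above every control, and the log2 change of 1.03 (SE 0.13, adjusted p = 0.00041) was the largest rise of the 42 genes. The opposite-strand genes at Fen1 are Tmem258 and Gm10143. Lig1 was called lower by 0.13 (adjusted p = 0.046), a call lost in 4 of 6 omissions of a library, and it turned to 0.03 under median centring. The ratio of Fen1 to Lig1 FPKM was 0.291 ± 0.0446 in controls and 0.698 ± 0.00692 in knockouts (SD, n = 3).

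The genes of deoxynucleotide supply did not move together in spermatocytes. Rrm2 stood at 12.29, 12.33 and 11.62 FPKM in controls and 8.53, 8.72 and 8.19 in knockouts, and fell by 0.46 on the log2 scale (SE 0.040, adjusted p = 6.9e-05). Rrm1 fell by 0.29 (adjusted p = 0.00014), so both subunits of ribonucleotide reductase were lower. Dut stood at 35.91, 34.61 and 36.83 FPKM in controls and 24.92, 23.4 and 24.1 in knockouts, and fell by 0.55 (SE 0.036, adjusted p = 1.9e-05). Tk1 and Tyms, which make thymidine monophosphate by salvage and de novo, rose from the lowest levels of the set. Tk1 stood at 1.93, 1.86 and 1.74 FPKM in controls and 2.47, 2.67 and 2.7 in knockouts (log2 fold change 0.35, SE 0.053, adjusted p = 0.0011). Tyms stood at 1.91, 2.13 and 1.64 FPKM in controls and 2.28, 3.06 and 3.34 in knockouts (log2 fold change 0.42, SE 0.12, adjusted p = 0.020). In both genes the groups do not overlap, but the call of Tyms was lost in 4 of 6 omissions of a library, and the log2(FPKM + 1) scale understates changes at such low levels.

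**Figure D4:**
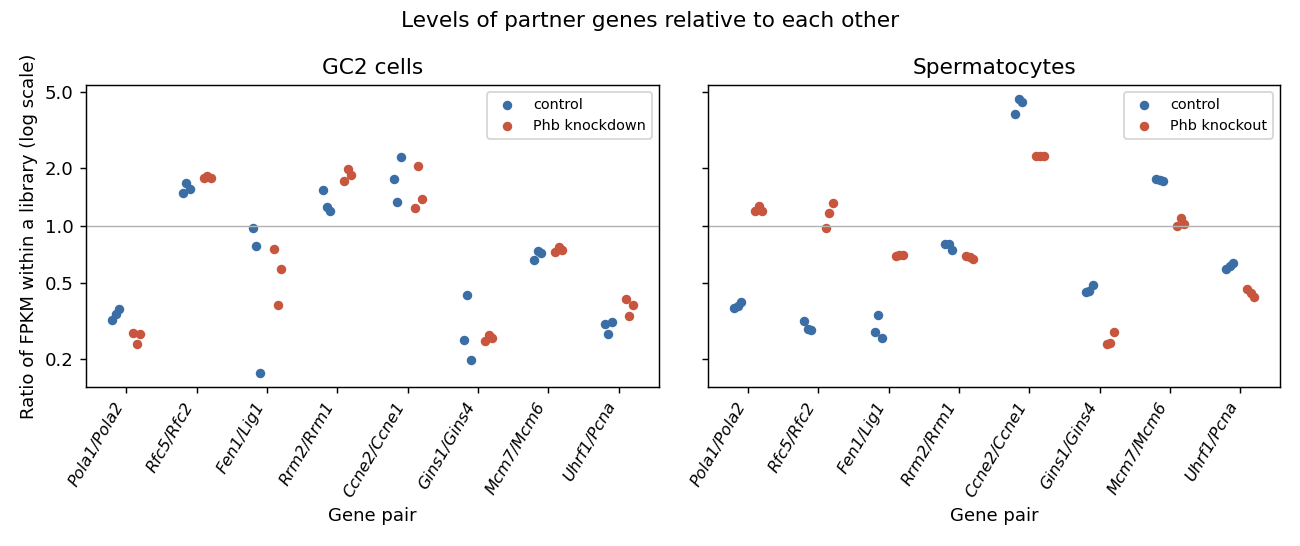
Ratio of FPKM of 8 gene pairs within each library, on a log axis, in GC2 cells (left) and spermatocytes (right), with control libraries in blue and Phb-depleted libraries in red. In spermatocytes the mean of Pola1/Pola2 crosses from 0.381 to 1.22 and that of Rfc5/Rfc2 from 0.295 to 1.15, while the same pairs in GC2 cells stay on their side of 1.

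A common scaling factor cancels in these ratios, and the 8 pairs were chosen after the values had been seen, so no test was made on them. In spermatocytes the ratio of Ccne2 to Ccne1 was 4.32 ± 0.421 in controls and 2.31 ± 0.0127 in knockouts, and that of Gins1 to Gins4 was 0.461 ± 0.0215 and 0.252 ± 0.0204. The ratio of Uhrf1 to Pcna was 0.613 ± 0.024 and 0.444 ± 0.019. Ribonucleotide reductase moved in opposite ways, since the ratio of Rrm2 to Rrm1 was 0.784 ± 0.0313 in control and 0.68 ± 0.015 in knockout spermatocytes, but 1.32 ± 0.184 in control and 1.84 ± 0.137 in knockdown GC2 cells. The ratio of Pola1 to Pola2 in GC2 cells was 0.342 ± 0.024 in controls and 0.261 ± 0.018 in knockdowns.

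The third comparison sets the changes in both kinds of cell against each other. Called higher in GC2 and lower in spermatocytes were Rrm2, Pola2, Pole2 and Mcm7, and no gene was called in the reverse pattern. Over the 9673 genes tested in both tables these patterns held 2.17% and 6.3%. The GC2 calls of Pola2, Pole2 and Mcm7 were lost when any single library was left out. The spermatocyte rows of Pole2 and Mcm7 also name other genes. Orc6, Rfc5 and Tk1 were called higher in both (4.83% of all genes), and Rfc1, Prim2 and Prim1 lower in both (3.15%). Exons of Orc6, Rfc5 and Tk1 each overlap a gene on the opposite strand. The calls of Prim1 were lost under every other scaling in both kinds of cell. A further 18 of the 42 (42.9%) were called lower in spermatocytes without a call in GC2 cells, beside 20.0% of all genes. The matching count for higher in spermatocytes was 3 (7.14%), beside 33.5%. Mcm10 was called lower in GC2 cells only (2.08% of all genes), and 10 genes (23.8%) were called in neither, beside 14.5%. With 4 genes or fewer in most patterns, these shares are given as a description.

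**Figure D5:**
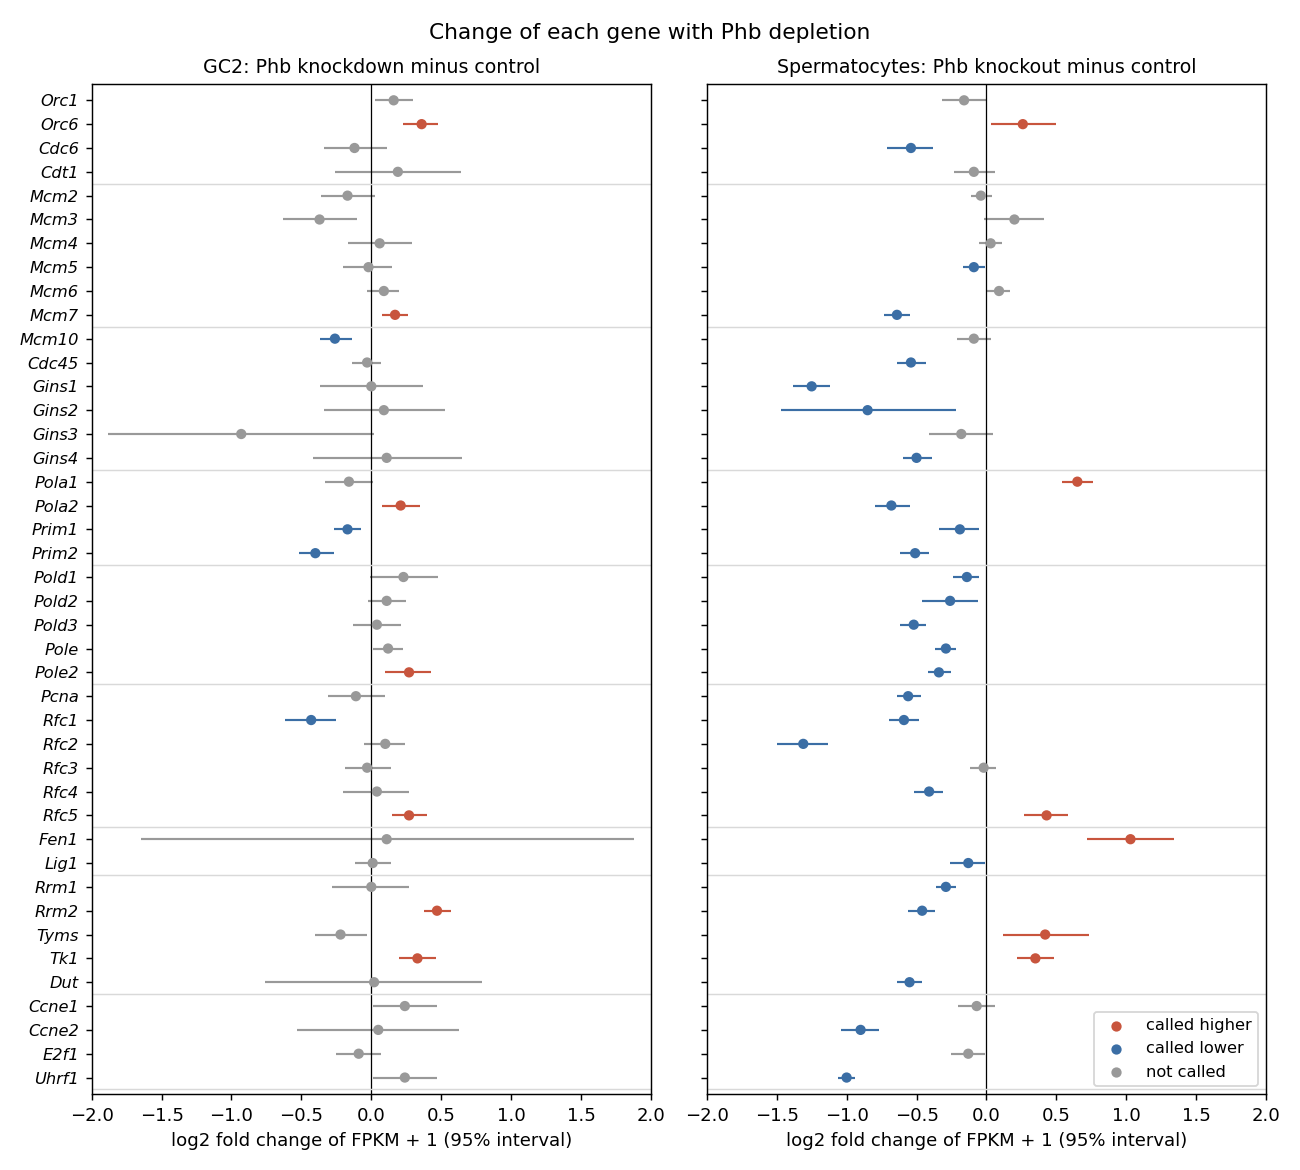
Log2 fold change of FPKM + 1 with its 95% interval for each of the 42 genes, GC2 knockdown minus control on the left and spermatocyte knockout minus control on the right, with genes called higher in red, called lower in blue and not called in grey. Most intervals on the left lie near 0, and 25 genes on the right are called lower.

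The difference between both changes was tested directly in a limma fit of all 12 libraries. It passed for 24 of the 42 genes (57.1%, beside a background of 60.9% of 9673 genes). For 20 of these the change in spermatocytes was the more negative (47.6%, beside a background of 22.9%), and for 4 the more positive (9.52%, beside 38.0%). Rfc2 had the most negative difference, at -1.41 (SE 0.098, adjusted p = 9.9e-07), followed by Gins1 at -1.26 (SE 0.16, adjusted p = 8.6e-05) and Uhrf1 at -1.24 (SE 0.098, adjusted p = 2.6e-06). For the genes called in opposite directions the difference was -0.94 for Rrm2 (SE 0.053, adjusted p = 2.3e-07) and -0.89 for Pola2 (SE 0.072, adjusted p = 2.9e-06). Mcm7 and Pole2 had -0.81 and -0.61, but their spermatocyte rows name other genes that their GC2 rows do not. The 4 positive differences were those of Pola1, Tyms, Mcm3 and Mcm10, and Pola1 had the largest at 0.81 (SE 0.077, adjusted p = 9.9e-06). Among genes on rows of their own in both tables, 22 of 39 passed. Dut and Fen1 had differences of -0.57 and 0.92 that missed the threshold (adjusted p = 0.16 and 0.32), with SEs of 0.33 and 0.75. The genes called in the same direction in both kinds of cell did not pass this test, with differences of -0.16 to 0.15, which does not show that their changes were equal. Of these, Rfc5 passed under median centring and quantile normalization and Tk1 under quantile normalization.

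Other genes of the replication pathway were followed as lists. Of 39 other replication genes, 4 rose and 6 fell in GC2 cells and 10 rose and 19 fell in spermatocytes, with median log2 fold changes of -0.09 and -0.10. Their GC2 shares, 10.3% higher and 15.4% lower, lay near the 10.7% and 13.9% of all tested rows, and their spermatocyte shares were 25.6% and 48.7%, beside 40.9% and 38.5%. In GC2 cells Mcm8, Mtbp and Atad5 fell by 0.56, 0.53 and 0.43, and Clspn, a mediator of the replication checkpoint, rose by 0.35. In spermatocytes Rnaseh2a, the catalytic subunit of an enzyme that removes ribonucleotides from DNA, fell from 61.6 ± 1.81 to 10 ± 0.101 FPKM (SD, n = 3; adjusted p = 1.8e-08). Rpa1, the large subunit of the single-strand binding complex, fell from 27.1 ± 0.316 to 9.17 ± 0.183 FPKM. The row of Rnaseh2a also names Gm49661 and that of Rpa1 also names Gm47300. Lrwd1, a partner of the origin recognition complex, and Gmnn, the inhibitor of CDT1, fell by 1.91 and 0.94. Under median centring the spermatocyte split of this list was 14 higher and 13 lower, and under quantile normalization 14 and 15.

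Chromatin assembly behind the fork gave 4 rises and 2 falls among 11 genes in GC2 cells and 4 rises and 6 falls in spermatocytes. These are 36.4% and 18.2% in GC2 cells, beside 10.7% and 13.9% of all tested rows, and 36.4% and 54.5% in spermatocytes, beside 40.9% and 38.5%. In GC2 cells Chaf1b and Chaf1a, subunits of chromatin assembly factor 1, rose by 0.40 and 0.25, and Hat1, a histone acetyltransferase, fell by 0.30. In spermatocytes Chaf1a fell from 18.7 ± 0.564 to 5.3 ± 0.165 FPKM, and Nasp, a histone chaperone, fell from 186 ± 1.35 to 34.1 ± 1.1 FPKM (SD, n = 3; adjusted p = 1.8e-08). Rbbp4, a histone-binding subunit shared by several complexes, rose by 0.33, and Dnmt1, the maintenance methyltransferase recruited by UHRF1, fell by 0.33.

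The wider nucleotide supply list had 11 rises (55.0%) and 4 falls (20.0%) among 20 genes in spermatocytes, beside 40.9% and 38.5% of all tested rows, and a median of 0.16. Gart, Mthfd1 and Atic, of purine synthesis and its folate supply, rose by 0.97, 1.00 and 0.64, while Gmps, which makes GMP, fell by 1.23. In GC2 cells this list had 2 rises (10.0%) and 5 falls (25.0%), beside 10.7% and 13.9%. There Paics, of purine synthesis, rose by 0.64. A row that names Nme2, Gm20390 and Nme1, the first and the last of them nucleoside diphosphate kinases, fell by 0.52, so this value cannot be given to Nme1 alone.

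Among G1/S cyclins, kinases, inhibitors and E2F/RB genes, 4 of 32 rose (12.5%) and 1 fell (3.12%) in GC2 cells, beside 10.7% and 13.9% of all tested rows. Ccnd1, cyclin D1, rose from 20.9 ± 0.38 to 49.1 ± 2.73 FPKM (SD, n = 3; log2 fold change 1.19, SE 0.054, adjusted p = 0.00022), and E2f7, E2f8 and Mybl2 rose by 0.63, 0.43 and 0.39. The 1 fall was that of E2f3, by 0.27, named after its value was seen. In spermatocytes 12 of 33 rose (36.4%) and 14 fell (42.4%), near the 40.9% and 38.5% of all tested rows, and under median centring 15 rose and 11 fell. Ccna1, the meiotic cyclin A of pachytene cells, stood at 42.7 ± 0.374 FPKM in controls and 0.423 ± 0.0551 in knockouts, and the inhibitor gene Cdkn2c stood at 41.9 ± 0.0569 and 4.79 ± 0.448 (SD, n = 3). E2f8 and Mybl1 fell by 1.36 and 1.27.

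Genes of G2 and M phase were counted as a further list. Whether their levels follow the number of dividing cells was not tested. In spermatocytes the markers of pachytene and diplotene cells fell in the same samples, so the cells behind a fall cannot be told apart. In GC2 cells 3 of 20 rose (15.0%) and 4 fell (20.0%), beside 10.7% and 13.9% of all tested rows, with a median of -0.02. Mki67 rose from 50 ± 2.24 to 64.9 ± 1.98 FPKM, and Ttk and Bub1, kinases of the spindle checkpoint, fell by 0.37 and 0.21. In spermatocytes 19 of 20 fell (95%, background 38.5%) and none rose, with a median of -0.71 beside -0.23 for the 42 replication genes, and their summed level was 597 to 603 FPKM in controls and 321 to 327 in knockouts. Ccnb2, Cdc20, Aurka and Plk1 fell by 1.41, 1.19, 2.1 and 1.25. Under median centring and under quantile normalization 16 of the 20 were lower and none was higher.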

How the data were processed

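Per the file headers, the values the authors deposited are FPKM, with 1 number for each gene row in each library. Per the submitters' processing notes, HISAT2 2.1.0 and DESeq were used, with the builds GRCm38 and mm10 named without a role. The sources used here name no quantifier, annotation or strand setting. By their transcript names, some rows hold assembled transcripts beside annotated ones. The GC2 row of Fen1 holds 8 among its 12 transcripts, and its spermatocyte row 0 among 4, so these rows differ in content.

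The deposited FPKM were tested as log2(FPKM + 1) with limma 3.58.1 (R 4.3.3, variance trend). Named rows at 1 FPKM or more in 3 of 6 libraries were tested, in each table separately, with two-sided calls at 0.05 after Benjamini-Hochberg adjustment over all rows. FPKM do not correct for composition, so other scalings, filters and omissions of single libraries were tried. Unnamed rows (1200 in the GC2 table, 164 in the spermatocyte table) did not enter. Where several rows name a gene, the row with the highest mean was used. Summaries used Python 3.11.15 and pandas 2.3.3.

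Depth is not stated. Steps between low values put spermatocyte libraries at about 11 M to 15.5 M fragments, and the lowest level of a replication gene at about 67 fragments. Replicates correlated across genes at r = 0.924 to 0.937 in GC2 and 0.984 to 0.988 in spermatocytes. In simulated data with independent noise, known changes were added to some rows with a control level of at least 5 FPKM. Of 1.5-fold changes, 47.5% were recovered in a simulation of 10791 GC2 rows and 77.5% in one of 15957 spermatocyte rows. The largest called change of a replication gene in GC2 cells, that of Rrm2, was 1.4-fold, and recovery of changes under 1.5-fold was not simulated. Recovery at lower levels, such as those of Tk1 and Tyms in spermatocytes, was not simulated either.

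The 42 genes and all lists were chosen with earlier results of these data known. Any of the 42 may be named. Library values were planned for the most abundant gene, for the 8 largest rises and 8 largest falls without overlap in each comparison and for genes called in opposite directions, and others were added after their values were seen. Up to 4 called genes with the smallest adjusted p were named from a pathway list. Sycp3, Stra8, Ybx3, E2f3, Dmrtb1 and Ddx4 were chosen after their values were seen. GENCODE M21 (GRCm38) gave the positions.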

Additional observations from a re-analysis of the deposited data

Results flagged for a closer look

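The change with Phb depletion differed between spermatocytes and GC2 cells, in the limma test of that difference, for 24 of the 42 genes. Values are the log2 fold change in spermatocytes minus that in GC2 cells. Licensing genes with a negative difference were Orc1 at -0.33 and Cdc6 at -0.43. In the helicase, Mcm7 had -0.81, Mcm3 0.56 and Mcm10 0.17, and among activation genes Gins1 had -1.26, Gins2 -0.94, Gins4 -0.61 and Cdc45 -0.50. The polymerase genes were at 0.81 for Pola1, -0.89 for Pola2, -0.38 for Pold1, -0.37 for Pold2, -0.56 for Pold3, -0.42 for Pole and -0.61 for Pole2. Clamp and loader genes were at -0.45 for Pcna, -1.41 for Rfc2 and -0.45 for Rfc4. In nucleotide supply Rrm2 had -0.94 and Tyms 0.64. The G1/S genes Ccne1 and Ccne2 had -0.31 and -0.96, and Uhrf1 had -1.24. The kind of cell and the kind of depletion changed together in this design and cannot be told apart.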

How the results depend on the processing

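In GC2 cells 7 genes were called higher and 4 lower. With the replicate block 4 were called higher, without any 1 library again 4, and lower calls without 1 library numbered 2 to 4, with 2 without knockdown replicate 3, where Mcm10 and Prim1 were lost. In spermatocytes the 6 higher calls became 3 under the stricter filter of 5 FPKM, which leaves fewer genes tested, 12 under quantile normalization and 11 under median centring, and without 1 library they numbered 4 to 6. The 25 lower calls numbered 20 to 25 without 1 library, beside 5947 to 6020 of all tested rows, where 6139 were lower with every library. Leaving out genes on shared rows, an alternative added after seeing the data, left 23. The 24 genes with a difference between both changes became 18 to 24. In GC2, same-numbered replicates of both groups deviated together with r of 0.061 to 0.124, beside -0.074 to -0.001 for replicates of unlike number. In spermatocytes these ranges were -0.054 to 0.007 and -0.042 to 0.036. These correlations are weak, and they do not settle whether the numbers pair the GC2 samples. The cause of the shifts in the counts of calls was not tested.

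Of the genes whose sign changed, Mcm5, Pold1 and Lig1 in spermatocytes were called on the deposited scale, and Mcm2, Mcm10 and Rfc3 were called higher there under quantile normalization. In GC2, quantile normalization, median centring and totals without mitochondrial rows gave 0.02, 0.02 and 0.05 for Mcm5, 0.02, 0.01 and 0.04 for Cdc45, and 0.02, 0.02 and 0.05 for Rfc3. Without 1 library, GC2 values ranged from -0.03 to 0.13 for Mcm4, -0.09 to 0.01 for Mcm5, -0.09 to 0.22 for Gins2, -0.12 to 0.27 for Gins4, -0.06 to 0.02 for Rfc3, -0.05 to 0.09 for Rfc4, -0.63 to 0.58 for Fen1, -0.02 to 0.04 for Lig1, -0.23 to 0.17 for Dut and -0.14 to 0.16 for Ccne2. In spermatocytes quantile normalization and median centring gave 0.09 and 0.07 for Cdt1, 0.08 and 0.12 for Mcm2, 0.04 and 0.07 for Mcm5, 0.17 and 0.07 for Mcm10, 0.12 and 0.14 for Rfc3, 0.15 and 0.09 for Ccne1, and 0.02 and 0.03 for E2f1. Quantile normalization gave 0.06 for Gins3, median centring gave 0.02 for Pold1 and 0.03 for Lig1, and totals without mitochondrial rows gave 0.03 for Mcm2 and 0.04 for Rfc3. The difference between both changes became 0.07 and 0.08 for E2f1, 0.02 and 0.09 for Mcm4, 0.01 and 0.05 for Mcm5 and 0.07 and 0.09 for Prim1 under quantile normalization and median centring, and 0.02 for Orc6 under centring.

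Exons of 13 of the 42 genes overlap a gene on the opposite strand, among them Fen1, Rfc2, Ccne2 and Mcm7, and Pcna and Tyms have named pseudogenes. If strand was not used in counting, reads of overlapping genes cannot be told apart.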
